A study of Mus musculus with 4 samples.

Results

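The Hox genes were the 37 rows of the authors' expression workbook whose gene symbol is Hox followed by a cluster letter from a to d and a number, out of 20193 genes with a symbol. They comprised 11 genes of the Hoxa cluster, 9 of Hoxb, 9 of Hoxc and 8 of Hoxd. The GRCm38.p6 assembly lists 39 such genes in 4 clusters, and Hoxb8 and Hoxd4 were not analysed here. The samples were 4 cultures of C2C12, a mouse myoblast line derived from thigh muscle that can be driven to form myotubes. In 2 of them the cells carried Myolinc, a long noncoding RNA, in the pcDNA3.1/Zeo(+) plasmid and were kept as a polyclonal line, here called the Myolinc line. The other 2 carried the plasmid without insert, here called empty vector. All were grown in medium with 20% fetal bovine serum, transfected by lipofection and selected with Zeocin, and total RNA of each was hybridised to an Affymetrix array. The labels call the arrays biological replicates without naming separate transfections or selections, so a line and its plasmid cannot be told apart, and a p-value here rests on array-to-array spread that may be technical.

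Hox genes encode homeodomain transcription factors that tell cells where they lie along the body axis. In each cluster the genes lie in the order of their paralog numbers, from 1 at the end used in the head and neck to 13 at the end used in the tail, digits and genital region, and genes of the same number in different clusters are close relatives. Hox proteins bind DNA together with TALE-class partners of the Pbx, Meis and Pknox families, Polycomb complexes keep unused stretches of a cluster silent, and retinoic acid and FGF signals switch genes on in the embryo. Muscle and connective tissue cells of the adult keep part of the Hox pattern of the place they came from, and cell lines derived from them often do too.

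The comparison asked which Hox genes differed between the Myolinc line and empty vector. Of the 37 Hox genes 4 passed the test, with 1 rise and 3 falls. Hoxb2 rose, and Hoxb9 and Hoxc12 were among those that fell, while 33 genes did not pass at an adjusted p under 0.05 in limma. The 1 rise was 2.70% of the 37 genes, against 4.61% of all genes, and the 3 falls were 8.11%, against 4.65%. Calls in either direction came to 10.8% of the Hox genes and 9.26% of all genes, so the share of Hox genes called lay near that of the array as a whole. At an unadjusted p under 0.05 there were 9 Hox genes, or 24.3%, beside 26.7% of all genes. The median log2 fold change of the 37 was 0.03, and that of all genes was 0.02. Differences were positive in 21 Hox genes and negative in 16, and 54.8% of all genes were positive. Readings of the 2 groups were fully separate in 26 Hox genes (70.3%), against 53.9% of all genes, with 15 of them higher and 11 lower in the Myolinc line.

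**Figure D1:**
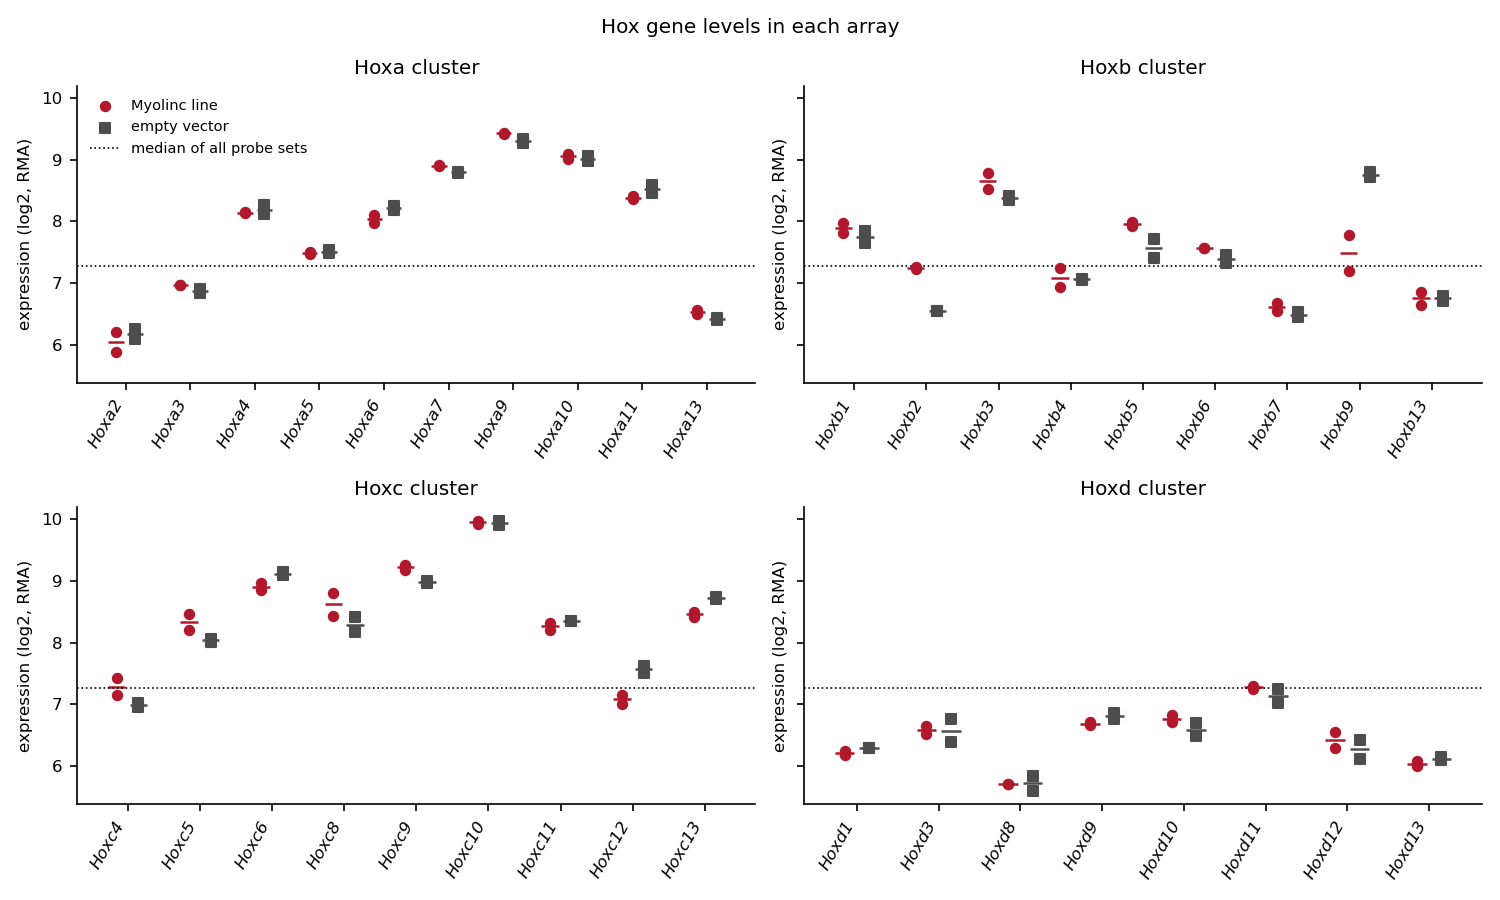
Expression of each Hox gene in each array, on the log2 scale of the authors' RMA values, by cluster and paralog number, for the genes reported here. Red circles are the 2 Myolinc line arrays, grey squares the 2 empty vector arrays, short bars the group means, and the dotted line the median of all probe sets, 7.27. Hoxb2 stands apart upward and Hoxb9 downward in the Myolinc line, and 7 of the 8 Hoxd genes lie below the dotted line in both groups.

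The median over probe sets is used only as a rough mark of low readings, since probe sets differ in how strongly they respond. Of the 37 genes, 20 had group means at or above that median of 7.27 in both groups, 14 lay below it in both, and 3 lay on either side. The genes below it in both groups were 7 of the 8 Hoxd genes, 4 of Hoxb, 3 of Hoxa and 0 of Hoxc.

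Hoxb2 patterns the hindbrain and its motor neurons in the embryo and lies on chromosome 11 (GRCm38.p6, chr11:96351632-96354020). It read 7.25 and 7.23 in the Myolinc line, against 6.55 and 6.54 in empty vector. Both Myolinc arrays stood above both empty vector arrays, and the arrays within a group lay close together. The means were 7.24 ± 0.02 in the Myolinc line and 6.54 ± 0.01 in empty vector (SD, n = 2 per group), a log2 fold change of 0.70 (SE 0.06, 95% interval 0.54 to 0.85, limma adjusted p = 0.0147), 1.62-fold higher in the Myolinc line. A larger change was seen in 2.69% of all genes. Both group means of Hoxb2 lie below the median over probe sets.

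Hoxb9 gives thoracic vertebrae and ribs their identity together with its paralogs, and lies toward the other end of the same cluster (chr11:96271330-96276595). It read 7.78 and 7.19 in the Myolinc line, against 8.80 and 8.71 in empty vector. The Myolinc arrays were both lower, and they differed from each other far more than the empty vector arrays did. Hoxb9 had the largest difference of the 37 genes, with means of 7.49 ± 0.41 in the Myolinc line and 8.75 ± 0.06 in empty vector (SD, n = 2 per group), a log2 fold change of -1.27 (SE 0.21, 95% interval -1.85 to -0.69, adjusted p = 0.0425), 2.41-fold lower in the Myolinc line. A larger change was seen in 0.688% of all genes.

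Hoxc12 lies next to the hair follicle gene Hoxc13 at the end of its cluster (chr15:102936826-102938609). It read 7.01 and 7.16 in the Myolinc line, against 7.52 and 7.63 in empty vector. The Myolinc readings lay under the median over probe sets and the empty vector readings stood above it. The log2 fold change was -0.48 (SE 0.08, 95% interval -0.71 to -0.26, adjusted p = 0.0450), 1.40-fold lower.

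The calls of Hoxb9 and Hoxc12 ended when the array's control probe sets were kept in the variance estimate (adjusted p = 0.0710 and 0.0742), and that of Hoxb2 held there (0.0323). The authors' deposited table gives Hoxb2 a p-value of 0.00044, Hoxb9 0.00567 and Hoxc12 0.0064, and Hoxb2 alone passed when those p-values were adjusted over all genes. Without either one of the empty vector arrays, 0 Hox genes and 0 of all genes passed in limma, with 4 and 5 Hox genes at an unadjusted p under 0.05. Hoxc12 did not pass without either Myolinc array (adjusted p = 0.109 and 0.0506). In that fit the spread comes from the empty vector pair alone, so the spread of Hoxb9 between Myolinc arrays is left out of its test.

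**Figure D2:**
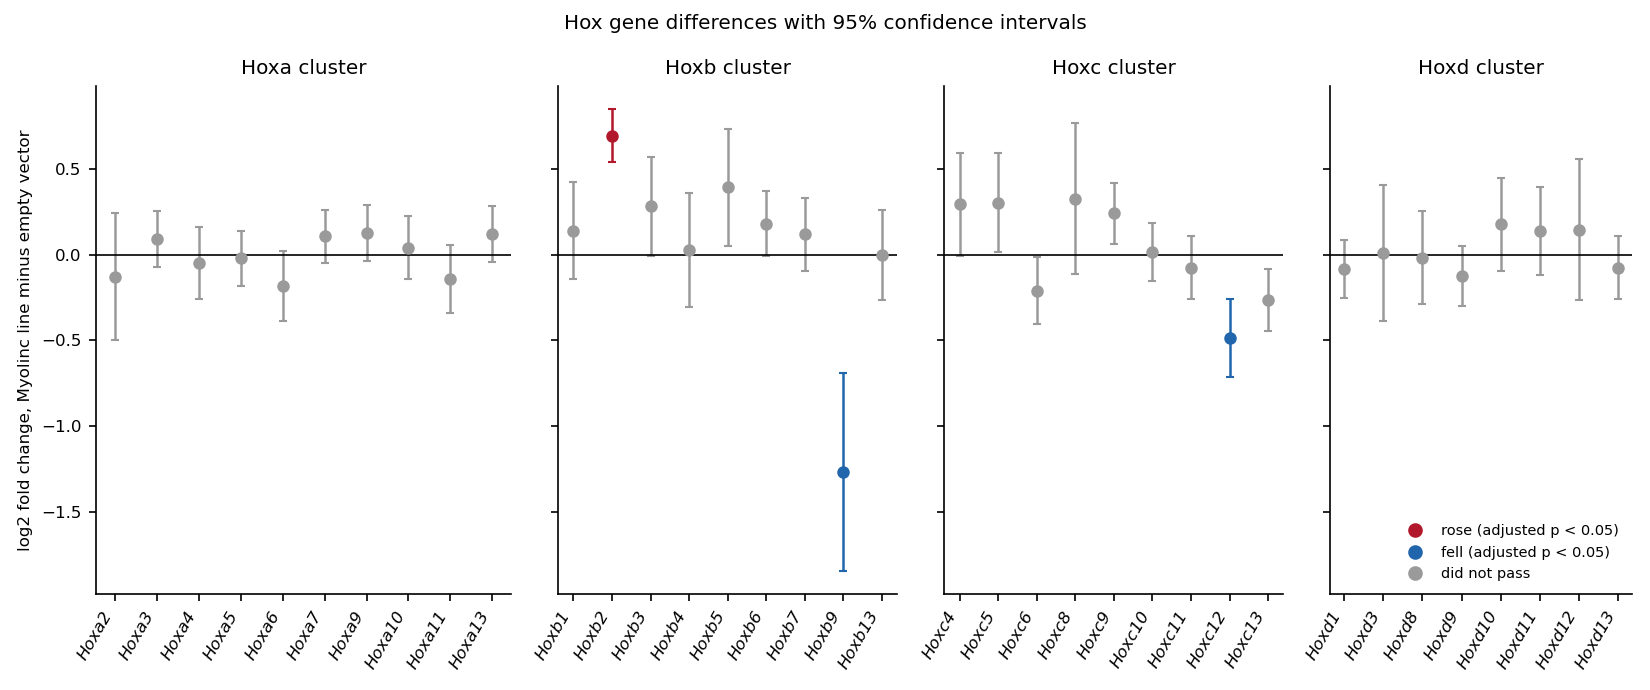
Log2 fold change of each Hox gene reported here, Myolinc line minus empty vector, by cluster and paralog number, with 95% confidence intervals of the limma fit. Red marks a gene that rose, blue a gene that fell and grey a gene that did not pass. Hoxb2 at 0.70 is the gene that rose, Hoxb9 at -1.27 has the largest difference and the widest interval, and the Hoxd intervals all include 0.

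In the Hoxb cluster 7 of 9 genes had a positive difference and 2 a negative one, with a median of 0.14. From Hoxb1 to Hoxb7 every difference was positive in the main fit. Hoxb4 turned to -0.014 after a further quantile normalization and to -0.015 with array medians centred. Without Myolinc line replicate 2 it stood at -0.13. Hoxb9 fell, and Hoxb13 was at -0.00082, or 0.11 with chromosome medians removed. Hoxb5, which acts in positioning of the forelimb and in neural crest of the gut, read 7.92 and 7.99 in the Myolinc line and 7.40 and 7.72 in empty vector (log2 fold change 0.40, SE 0.13, adjusted p = 0.143). Hoxb3, another hindbrain gene, read 8.78 and 8.53 in the Myolinc line and 8.40 and 8.34 in empty vector (0.28, SE 0.11, adjusted p = 0.194). The groups did not overlap in either gene, as in 53.9% of all genes, but the arrays of one group lay well apart in each. Hoxb6, a trunk gene, read 7.57 and 7.57 in the Myolinc line and 7.45 and 7.33 in empty vector (0.18, SE 0.07, adjusted p = 0.199). Hoxb1, of the hindbrain, had a difference of 0.14, Hoxb7 one of 0.12 and Hoxb4 one of 0.03, with 95% intervals of -0.14 to 0.42, -0.09 to 0.33 and -0.31 to 0.36. In the assembly the Hoxb3 annotation spans all of Hoxb4, and the readings of these 2 genes may share transcripts. Other genes of chromosome 11 had a median of -0.03, with 41 rises (2.76%) and 116 falls (7.82%) among 1484. The median removed for this chromosome was -0.11, taken only over its genes at or above the median over probe sets.

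In the Hoxc cluster 5 genes had positive and 4 negative differences, and the readings of the groups were fully separate in 8 of the 9 (88.9%), against 53.9% of all genes and 57.8% of other genes of chromosome 15. The ends of the cluster differed in sign, negative from Hoxc13 to Hoxc11 and positive for Hoxc5 and Hoxc4. Hoxc13, which drives hair keratin genes, read 8.51 and 8.41 in the Myolinc line and 8.71 and 8.74 in empty vector (log2 fold change -0.26, SE 0.07, adjusted p = 0.0919). Its neighbour Hoxc12 was the gene that passed, and Hoxc11, a hindlimb gene, had -0.08. Hoxc9, which sets thoracic motor neuron identity, read 9.18 and 9.27 in the Myolinc line and 8.996 and 8.963 in empty vector (0.24, SE 0.07, adjusted p = 0.106). Hoxc6, a gene of the forelimb level, went the other way from its neighbours, at 8.85 and 8.97 in the Myolinc line and 9.15 and 9.09 in empty vector (-0.21, SE 0.07, adjusted p = 0.165). Hoxc8, which patterns brachial motor neurons, had a difference of 0.33 (SE 0.16), Hoxc5 one of 0.30 (SE 0.11) and Hoxc4, a gene of the neck, one of 0.29 (SE 0.11), and none of these passed. Hoxc10, a hindlimb-level gene, stood at 9.95 ± 0.03 in the Myolinc line and 9.93 ± 0.04 in empty vector, and the 95% interval of its difference was -0.15 to 0.19. Whether genes within the cluster differed from each other in response was not tested.

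In the Hoxa cluster 10 genes did not pass, with small differences, between -0.18 and 0.13. Hoxa6, a trunk gene, read 7.97 and 8.10 in the Myolinc line and 8.24 and 8.18 in empty vector (log2 fold change -0.18, SE 0.07, adjusted p = 0.231). Hoxa9, which acts at thoracic levels and in limb and blood progenitors, read 9.42 and 9.43 in the Myolinc line and 9.33 and 9.27 in empty vector (0.13, SE 0.06, adjusted p = 0.280). Hoxa13, a gene of the hand and foot, read 6.50 and 6.56 in the Myolinc line and 6.43 and 6.39 in empty vector (0.12, SE 0.06, adjusted p = 0.316). In these 3 genes the readings of the groups were fully separate, as in 53.9% of all genes. Hoxa10 and Hoxa11, which pattern the upper and lower segments of the limb, had differences of 0.04 (95% interval -0.14 to 0.22) and -0.14 (-0.34 to 0.06). Hoxa7 had a difference of 0.11, Hoxa3 0.09, Hoxa5, a regulator of lung development, -0.02, Hoxa4 -0.05 and Hoxa2, a gene of the second pharyngeal arch, -0.13. The Hoxa3 annotation overlaps those of Hoxa4, Hoxa5 and Hoxa6, so these readings may share transcripts as well.

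None of the 8 Hoxd genes passed, and 0 had an unadjusted p under 0.05 in limma, against 26.7% of all genes. Their calls changed in no alternative run that tested them. The run without low-level probe sets held none of the Hoxd genes, so their calls could not change there. Their differences lay between -0.12 and 0.18, 4 positive and 4 negative, with a median of -0.0041. In the run with chromosome medians removed, the median was taken over genes at or above the median over probe sets only. It was -0.145 on chromosome 2, where other genes of any level had a median of -0.01. All 8 Hoxd genes were shifted by that same amount, though 7 of the 8 lie below the median over probe sets. The 4 negative ones turned positive through this shift, at 0.020 to 0.13. Hoxd9 read 6.71 and 6.67 in the Myolinc line and 6.85 and 6.77 in empty vector (log2 fold change -0.12, SE 0.06, adjusted p = 0.331). Hoxd10 read 6.82 and 6.71 in the Myolinc line and 6.69 and 6.49 in empty vector (0.18, SE 0.10, adjusted p = 0.361), and Hoxd11 read 7.25 and 7.30 in the Myolinc line and 7.25 and 7.03 in empty vector (0.14, SE 0.09, adjusted p = 0.462). These 3 genes act with their Hoxa relatives in patterning of the limb, and all 3 read close to or below the median over probe sets. The digit genes Hoxd12 and Hoxd13 had 0.15 and -0.08, and Hoxd1, Hoxd3 and Hoxd8 had -0.08, 0.01 and -0.02. The intervals over the 8 genes reached from -0.39 to 0.56, so changes of that size are not excluded by these arrays. The annotations of Hoxd10 and Hoxd11 overlap.

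By position, the 8 anterior genes, with numbers 1 to 3, had a median log2 fold change of 0.05. The central genes, 4 to 8, had 0 calls among 13, against 9.26% of all genes, and a median of 0.11. Of them 3 (23.1%) had an unadjusted p under 0.05 in limma, against 26.7% of all genes. The posterior genes, 9 to 13, had 0 rises and 2 falls among 16 (12.5%, against 4.65% of all genes falling), with a median of 0.01. Whether falls were particular to posterior genes was not tested, and the position groups were set with the Hox values known. Of paralog group 9, Hoxb9 fell by 1.27, whereas Hoxa9 and Hoxc9 had 0.13 and 0.24 and Hoxd9 had -0.12. Of group 2, Hoxb2 rose by 0.70 and Hoxa2 had -0.13. All 3 measured genes of group 3 and all 3 of group 10 had positive differences, of at most 0.28 and 0.18, and none of the 6 passed. Of these, Hoxd3, Hoxa10 and Hoxc10 turned negative with array medians centred, at -0.032, -0.00095 and -0.023, and Hoxd3 also after quantile normalization (-0.040). With one array left out, Hoxd3 went as low as -0.18 and Hoxc10 as low as -0.014. The differences between relatives were not tested.

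The surroundings of the clusters were looked at next, by taking the 5 nearest genes with a symbol on each side of each cluster. Their midpoints lay up to 1610 kb from the cluster centre. Of these 40 flanking genes 0 rose and 2 fell (5.0%, against 4.65% of all genes), both among the flanks of Hoxd, and 38 did not pass. Lnp (Lnpk in the assembly), which encodes an endoplasmic reticulum protein and lies just beyond Evx2, read 8.91 and 9.03 in the Myolinc line and 9.51 and 9.56 in empty vector (log2 fold change -0.57, SE 0.07, adjusted p = 0.0272). Hnrnpa3, an RNA-binding protein gene on the other side, read 11.66 and 11.72 in the Myolinc line and 12.16 and 12.09 in empty vector (-0.43, SE 0.06, adjusted p = 0.0339). The midpoint of Hnrnpa3 lay 948 kb from the cluster centre. Neither gene passed with the control probe sets kept (0.0503 and 0.0596). With chromosome medians removed Lnp passed (0.0499) and Hnrnpa3 did not (0.0778). Of the 1665 other genes of chromosome 2, 137 fell (8.23%, against 4.65% of all genes) and 45 rose. No flank of the Hoxb cluster passed on either side, where Hoxb2 rose and Hoxb9 fell, and the 10 flanking genes there lay between -0.20 and 0.14.

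**Figure D3:**
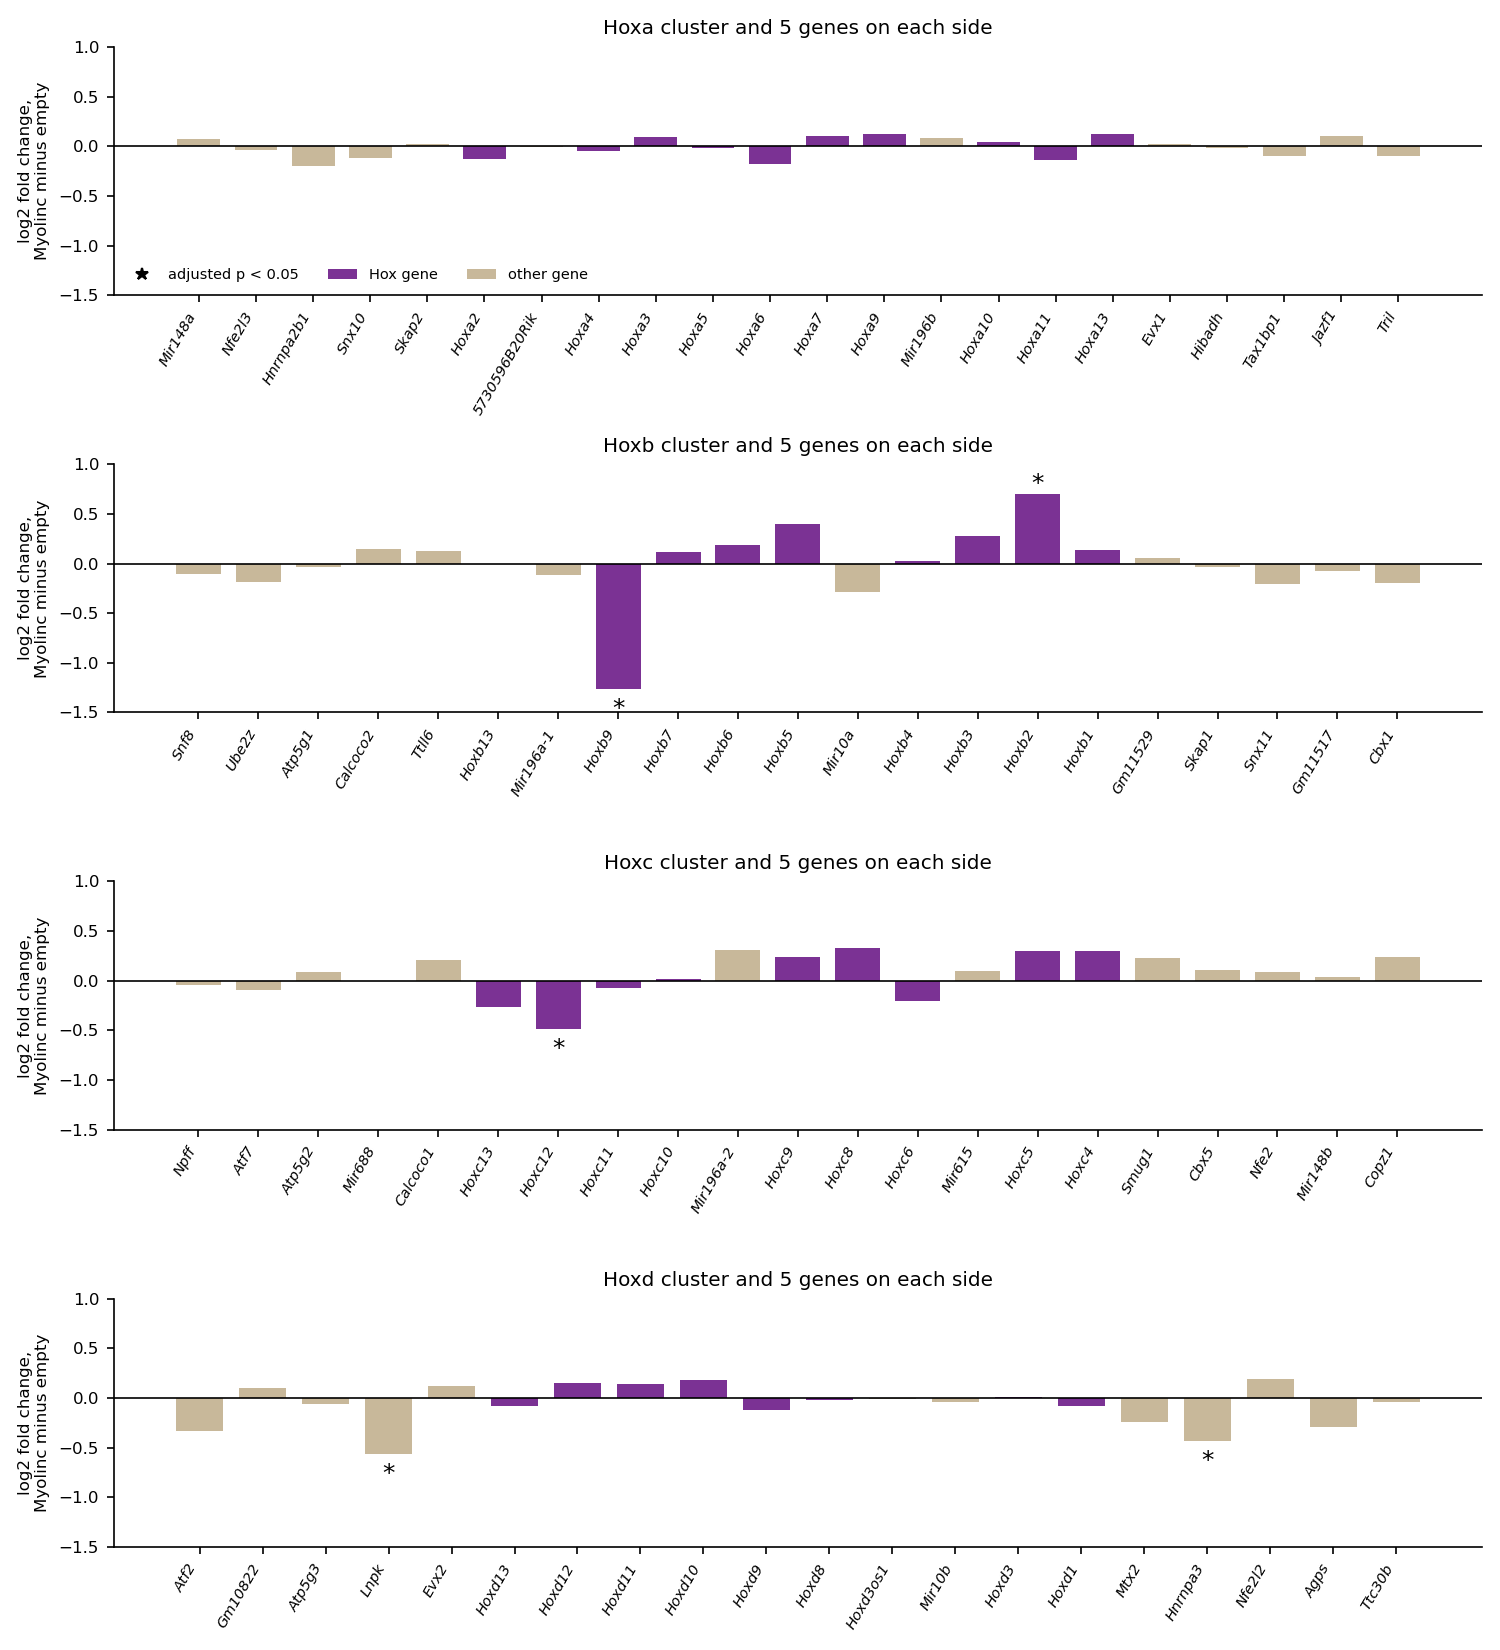
Log2 fold change, Myolinc line minus empty vector, of the genes inside each Hox cluster and of 5 genes on each side, in the order of their midpoints on the chromosome, for the genes reported here. Purple bars are Hox genes, tan bars other genes, and asterisks mark an adjusted p under 0.05. The called genes Hoxb2, Hoxb9 and Hoxc12 stand between neighbours that did not pass.

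The Hox clusters also carry microRNA genes, which lower the output of Hox messenger RNAs in the mouse embryo, and their sequences are shown because the array has a probe set for each locus. RefSeq (GRCm38.p6) gives the arms below, with the seed, bases 2 to 8, in capitals. Mature mmu-miR-196a-5p comes from both Mir196a-1 in Hoxb and Mir196a-2 in Hoxc, mmu-miR-196b-5p from Hoxa, mmu-miR-10a-5p from Hoxb and mmu-miR-10b-5p from Hoxd.
mmu-miR-196a-5p: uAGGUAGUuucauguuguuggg
mmu-miR-196b-5p: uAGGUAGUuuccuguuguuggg
mmu-miR-10a-5p: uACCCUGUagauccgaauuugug
mmu-miR-10b-5p: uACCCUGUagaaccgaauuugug
Both miR-196 RNAs share one seed and both miR-10 RNAs share another. The probe sets read RNA from the locus and not the mature microRNA. Mir196a-2, between Hoxc10 and Hoxc9, read 6.47 and 6.57 in the Myolinc line and 6.23 and 6.19 in empty vector (log2 fold change 0.31, SE 0.07, adjusted p = 0.0674). Mir10a, inside the Hoxb3 annotation, read 3.57 and 3.56 in the Myolinc line and 3.89 and 3.81 in empty vector (-0.28, SE 0.06, adjusted p = 0.0736). The groups did not overlap in either locus, as in 53.9% of all genes. Neither locus passed, and both lay below the median over probe sets. The list used here has 8 measured non-Hox genes of the loci, and adds Mir196a-1, Mir196b, Mir10b, Mir615, Evx1 and Evx2. Of these 8 genes 0 rose and 0 fell in limma, and 2 (25%, against 26.7% of all genes) had an unadjusted p under 0.05.

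Hox proteins bound with Pbx partners read a paired site, and the motif TGATNNAT, searched on both strands, is its core. It was found in 3 of the 22 windows of 250 bases before a start (13.6%) that RefSeq gives for 20 of the measured Hox genes, and in 7.68% of the 32851 windows of all genes. Of the called genes Hoxb2, Hoxb9 and Hoxc12 no window was used. The 3 windows that hold the motif, of Hoxb1, Hoxa2 and Hoxd11, are shown with the match in capitals, on the strand of the gene (GRCm38.p6). Hoxb1 is chr11:96365508-96365757 on the plus strand, Hoxa2 is chr6:52164832-52165081 on the minus strand and Hoxd11 is chr2:74682073-74682322 on the plus strand.
Hoxb1: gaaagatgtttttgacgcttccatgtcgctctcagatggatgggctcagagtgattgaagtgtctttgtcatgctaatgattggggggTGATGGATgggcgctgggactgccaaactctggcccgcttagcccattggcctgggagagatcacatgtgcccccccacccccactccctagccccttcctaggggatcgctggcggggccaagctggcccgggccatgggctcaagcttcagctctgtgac
Hoxa2: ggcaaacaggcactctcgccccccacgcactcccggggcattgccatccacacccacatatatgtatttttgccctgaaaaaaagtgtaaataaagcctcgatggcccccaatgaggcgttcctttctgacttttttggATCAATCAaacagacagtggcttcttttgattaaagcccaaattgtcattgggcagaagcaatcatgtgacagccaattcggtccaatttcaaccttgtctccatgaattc
Hoxd11: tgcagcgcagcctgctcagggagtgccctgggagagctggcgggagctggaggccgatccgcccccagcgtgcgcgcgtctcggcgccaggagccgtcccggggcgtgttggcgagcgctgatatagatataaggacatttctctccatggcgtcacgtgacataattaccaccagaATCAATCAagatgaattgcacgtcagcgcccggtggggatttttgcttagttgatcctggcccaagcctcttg
None of the 3 genes passed here, with differences of 0.14 for Hoxb1, -0.13 for Hoxa2 and 0.14 for Hoxd11.

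Genes of the TALE class were then examined, the Pbx, Meis and Pknox partners of Hox proteins together with the Tgif genes. Of 11 measured genes Pknox2 rose (9.09%, against 4.61% of all genes), 0 fell and 10 did not pass, with a median of 0.06. Pknox2, a TALE homeodomain gene related to the Meis genes, read 7.78 and 7.70 in the Myolinc line and 6.88 and 6.71 in empty vector. The groups lay far apart beside the spread within each, with a log2 fold change of 0.95 (SE 0.09, adjusted p = 0.0173), 1.93-fold higher, and the call held with the control probe sets kept (0.0363). Meis1 read 9.02 and 9.10 in the Myolinc line and 9.40 and 9.53 in empty vector (-0.41, SE 0.08), and missed the threshold at an adjusted p of 0.0520.

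Among chromatin regulators of the clusters, 2 of 31 measured Polycomb genes fell (6.45%, against 4.65% of all genes) and 0 rose, with a median of -0.12. Bmi1, a subunit of Polycomb repressive complex 1 that silences Hox genes, read 9.34 and 9.59 in the Myolinc line and 10.04 and 10.15 in empty vector (log2 fold change -0.63, SE 0.11, adjusted p = 0.0443). Pcgf5, a relative of Bmi1 in a variant of that complex, read 8.89 and 8.95 in the Myolinc line and 9.38 and 9.37 in empty vector (-0.45, SE 0.06, adjusted p = 0.0279). Both stood apart between groups, and neither passed with the control probe sets kept (0.0733 and 0.0512). Another list of 22 held Trithorax and H3K27 demethylase genes together with other histone methyltransferase genes and their partners. Of these Ash1l fell (4.55%), 0 rose and 21 did not pass, with a median of -0.08. Ash1l, a histone methyltransferase that favours Hox expression, read 9.67 and 9.76 in the Myolinc line and 10.14 and 10.20 in empty vector (-0.46, SE 0.07, adjusted p = 0.0345, or 0.0603 with the control probe sets kept).

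Of 18 retinoic acid pathway genes Rdh10 fell (5.56%, against 4.65% of all genes), 0 rose and 17 did not pass, with a median of -0.01. Rdh10, which makes retinal for retinoic acid synthesis, read 9.24 and 9.29 in the Myolinc line and 10.02 and 10.09 in empty vector (log2 fold change -0.79, SE 0.06, adjusted p = 0.0144), 1.73-fold lower, and passed with the control probe sets kept (0.0319). A list of 11 genes around FGF, WNT and GDF signalling along the axis held ligands, ERK feedback genes and other genes of the early axis. Of these Dusp6, a feedback inhibitor of ERK and not an input to Hox genes, fell (9.09%, against 4.65% of all genes) and 10 did not pass. It read 8.79 and 8.76 in the Myolinc line and 9.41 and 9.27 in empty vector (-0.56, SE 0.07, adjusted p = 0.0285, or 0.0520 with the control probe sets kept). None of the 3 Cdx genes, which activate central Hox genes in the embryo, passed in limma, and 0 had an unadjusted p under 0.05. Cdx4 had a difference of -0.06 and Cdx1 of 0.04, both smaller than the SD of the Myolinc arrays.

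Of 34 other transcription factors of position and limb, 2 rose, 3 fell and 29 did not pass (14.7% called, against 9.26% of all genes), with a median of 0.01. Prrx1, a factor of limb and connective tissue mesenchyme, read 11.40 and 11.42 in the Myolinc line and 10.82 and 10.86 in empty vector (log2 fold change 0.57, SE 0.06, adjusted p = 0.0207). Its relative Prrx2 went the other way, at 9.74 and 9.71 in the Myolinc line and 10.19 and 10.10 in empty vector (-0.42, SE 0.07, adjusted p = 0.0374). Tbx1, a factor of head muscle, fell by 0.81 (SE 0.08, adjusted p = 0.0178), and Tbx15, a factor of skeleton and muscle, fell by 0.73 (SE 0.09, adjusted p = 0.0272). With the control probe sets kept, Prrx2 and Tbx15 did not pass (0.0642 and 0.0503). Of 15 ParaHox and NK-type homeobox genes 0 passed in limma. Only 1 (6.67%, against 26.7% of all genes), Nkx2-5 (-0.40, adjusted p = 0.0903), had an unadjusted p under 0.05. Nkx2-5 passed with a trended and robust variance (0.00927), without low-level probe sets (0.0170) and with array medians centred (0.0385). The next by p, Lbx1, a gene of migrating limb muscle precursors, had 0.11.

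**Figure D4:**
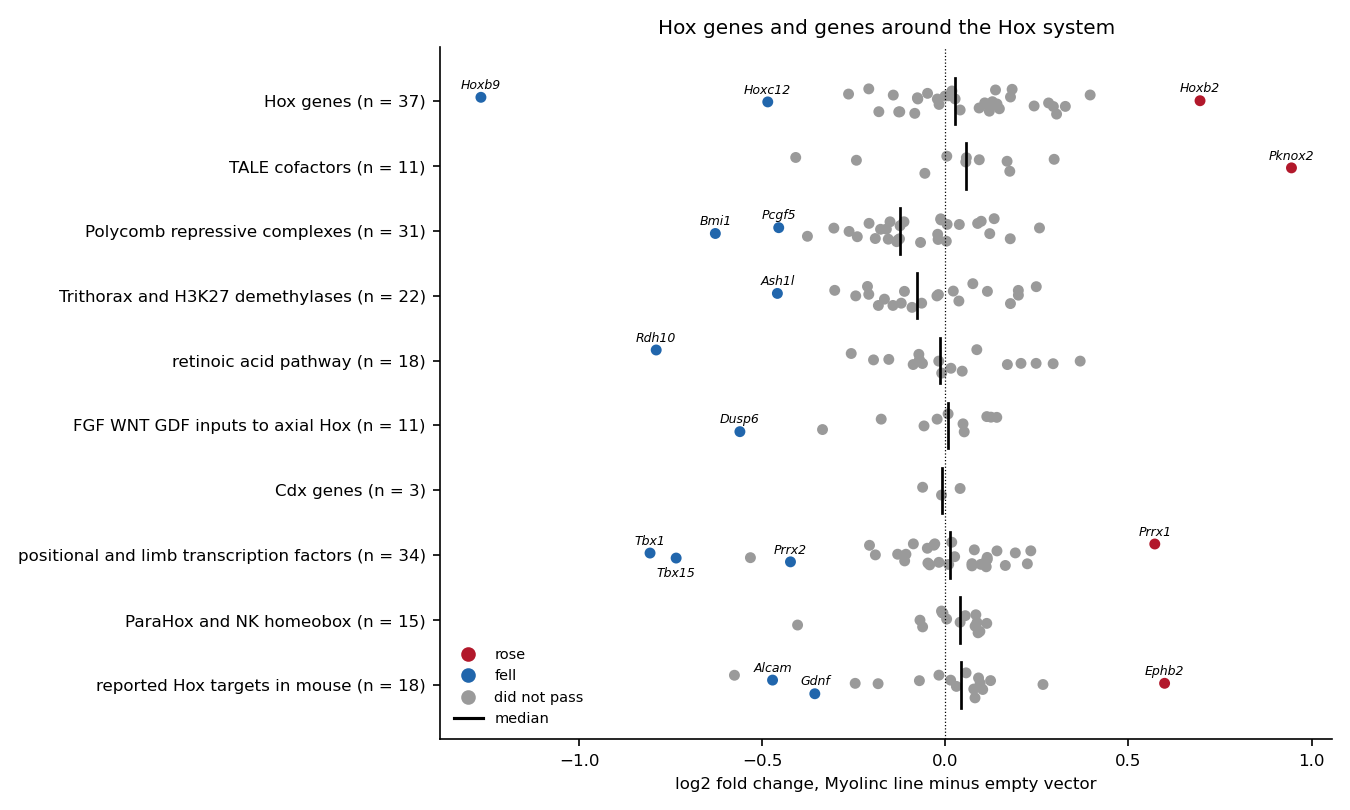
Log2 fold change, Myolinc line minus empty vector, of the Hox genes and of the lists of genes around the Hox system, with a point for each gene and a bar at each list's median. Red points rose, blue points fell and grey points did not pass, and called genes are named. The n and medians cover all measured members, and 2 genes not reported here are not drawn. The medians of the lists lie between -0.12 and 0.06.

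Genes reported as Hox targets in other mouse tissues had 1 rise and 2 falls among 18 (16.7% called, against 9.26% of all genes) and a median of 0.04. Ephb2, a receptor for ephrins, read 10.07 and 10.09 in the Myolinc line and 9.44 and 9.53 in empty vector (log2 fold change 0.60, SE 0.06, adjusted p = 0.0217). The adhesion gene Alcam fell by 0.47 (SE 0.07, adjusted p = 0.0345). Gdnf, a neurotrophic factor that depends on paralog group 11 in the kidney, fell by 0.36 (SE 0.06, adjusted p = 0.0386). Alcam and Gdnf did not pass with the control probe sets kept (0.0603 and 0.0658). That these genes are Hox targets in myoblasts was not tested.

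The labelled cell type was checked with marker genes, and array medians lay between 7.24 and 7.35. By the rough mark of low readings used above, group means stood above the median over probe sets in 8 of 9 myoblast markers and below it in all 6 neuronal and glial, 5 endothelial and 5 germline and pluripotent markers. The other lists were mixed, with 6 of 8 fibroblast, 4 of 6 leukocyte and 4 of 6 epithelial markers below it in both groups. Above it in both groups were 2 fibroblast, 2 leukocyte and 1 epithelial marker. Myod1, the myoblast regulator, read 11.59 and 11.55 in the Myolinc line and 11.54 and 11.47 in empty vector. The 9 measured myoblast markers averaged 10.29 and 10.30 in the Myolinc line and 9.95 and 9.98 in empty vector. Of them 4 rose (44.4%, against 4.61% of all genes) and 0 fell. The 4 were Itga7, Cdh15, Des and Myf5, with log2 fold changes of 1.23, 0.49, 0.33 and 0.38. Of these calls, that of Itga7 held with the control probe sets kept (adjusted p = 0.0197), and those of Cdh15, Des and Myf5 did not (0.0519, 0.0769 and 0.0807). Des and Myf5 also lost theirs with array medians centred (0.0966 and 0.109) and with chromosome medians removed (0.0647 and 0.0869). Of 8 fibroblast markers, averaging 6.85 to 6.88 in the Myolinc line and 6.80 to 6.81 in empty vector, Col3a1 rose by 0.69 (adjusted p = 0.0549 with the control probe sets kept) and Col1a1 fell by 1.25. Of 6 epithelial markers, at 6.59 and 6.59 in the Myolinc line and 6.95 to 7.05 in empty vector, Krt14 fell by 2.41, and of 6 leukocyte markers, at 6.34 to 6.53 in the Myolinc line and 6.40 to 6.48 in empty vector, Cd68 fell by 0.46. An unadjusted p under 0.05 in limma was seen in 6 of 9 myoblast, 5 of 8 fibroblast, 2 of 6 epithelial and 1 of 6 leukocyte markers. The share among all genes was 26.7%. Calls in either direction came to 44.4% of myoblast, 25% of fibroblast, 16.7% of epithelial and 16.7% of leukocyte markers, against 9.26% of all genes. The 6 neuronal and glial, 5 endothelial and 5 germline and pluripotent markers had 0 calls in limma and 0 genes at an unadjusted p under 0.05. Their members with the smallest p had log2 fold changes of 0.13 (Mbp) and 0.16 (Sox10), 0.11 (Cdh5) and 0.04 (Kdr), and 0.05 (Nanog) and -0.11 (Pou5f1). The part of these markers in the Hox results was not tested.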

How the data were processed

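RNA of 4 C2C12 cultures, 2 of the Myolinc line and 2 of empty vector, was measured on Affymetrix arrays. The deposited values are log2 values that the authors made with RMA, and a deposited log2 fold change and p-value come with each gene, per the file headers and the submitters' processing notes, where RMA and limma stand with no version. The array annotation and any filter were not given in the sources used here. In all, the value table held 35556 rows, of which 6616 with the lowest probe set numbers, below the first row with a symbol, were taken as control probe sets and left out. The 28940 others were fitted in limma 3.58.1 (R 4.3.3; lmFit and eBayes, default settings), as the Myolinc line over empty vector and two-sided. P-values were adjusted by Benjamini-Hochberg over the 20193 genes with a symbol, and 0.05 was the threshold. The fit had 2 residual and 2.18 prior degrees of freedom. With 2 arrays against 2, exact permutation gives no p under 0.333 and was not used. Simulated normal data with 200 changed genes were used to test the fit, which recovered 100% of them with 4.31% of calls false. All simulated probe sets had the same spread, unlike the arrays, so this cannot show how reliable the calls here are. RefSeq (GRCm38.p6) gave positions for 19457 genes and the sequences. Every Hox gene was counted, and 2 genes that passed, a Hox gene and a list member, are not reported here by name or value. Values per array are given for those past the threshold and the 3 next by p in each cluster, list members were named where they passed, or as the 2 smallest p where none did, and flanking genes where they passed. Meis1 and Myod1 were named outside this rule, after their values were seen. The members, lists and rule were chosen with earlier results of these data known, and the position groups with the Hox values known. RMA levels of different genes are not ranked, and the median over probe sets serves only as a rough mark of low readings. Figures were drawn with matplotlib 3.10.9.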

Additional observations from a re-analysis of the deposited data

How the results depend on the processing

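Main counts were 1 rise and 3 falls among Hox genes and 931 rises and 939 falls among all genes. With one array left out, where the lone array of a group is assumed to vary like the other pair, Hox rises lay between 0 and 1, Hox falls between 0 and 1, rises among all genes between 0 and 656 and falls between 0 and 570. Hoxb2, whose reading is among the low ones and was not tested where low-level probe sets were left out, passed in 12 of 16 alternatives, Hoxb9 in 8 of 17 and Hoxc12 in 5 of 17. All 3 kept their direction throughout, with log2 fold changes of 0.65 to 0.81, -1.56 to -0.97 and -0.56 to -0.41. These tallies are not of independent tests. Any gene called at 0.05 passes at the threshold of 0.1, and the main p alone decides the threshold of 0.01. The runs with the control probe sets kept and with the authors' p adjusted gave nearly the same values. With a replicate block there were 1 rise and 0 falls among Hox genes (adjusted p of Hoxb2 0.0495) and 209 and 152 among all genes. The shared numbers are not stated to mark a common culture or day, and deviations of same-numbered arrays correlated at 0.215 over probe sets. With the control probe sets kept, and likewise with the authors' p adjusted, Hox falls numbered 0 and all genes gave 472 and 415. A trended and robust variance gave 2 Hox rises, Hoxb2 and Hoxc9, and 1985 and 2357 over all genes. Its 4 Hox falls included Hoxc13 (limma adjusted p = 0.0370). Without low-level probe sets there were 3 Hox rises (Hoxb5, Hoxc5, Hoxc9) and 5 falls, and 1966 and 2380 over all genes, from fewer genes tested. Among those falls were Hoxc6 and Hoxc13 (limma adjusted p = 0.0425 and 0.0163), which had not passed in the main fit. An ordinary linear model gave 0 in all 4 counts, with 4577 genes at an unadjusted p under 0.05. A threshold of 0.01 gave 0 Hox genes and 79 and 48 of all, and 0.1 added Hoxc13 and gave 1619 and 1778 of all. Chromosome medians, taken over genes at or above the median over probe sets, were removed in another run. It left 1 Hox fall, and Hoxb9 and Hoxc12 did not pass there (limma adjusted p = 0.0551 and 0.0544). Adjustment over all probe sets also left 1, and again neither of them passed (0.0503 and 0.0532). Other counts stayed within 1.5 times.

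Of 613 Hox values under the 17 alternatives, 548 kept sign and call, 34 lost a call, 8 gained one and 23 changed sign, all in genes that had not passed. After a further quantile normalization Hoxb4 stood at -0.014 and Hoxd3 at -0.040. With array medians centred, Hoxa10 stood at -0.00095, Hoxb4 at -0.015, Hoxc10 at -0.023 and Hoxd3 at -0.032. With chromosome medians removed, Hoxa5 stood at 0.0055, Hoxb13 at 0.11, Hoxd1 at 0.061, Hoxd8 at 0.13, Hoxd9 at 0.020 and Hoxd13 at 0.069. With one array left out, values ranged from -0.29 to 0.031 for Hoxa2, -0.12 to 0.027 for Hoxa4, -0.13 to 0.18 for Hoxb4, -0.11 to 0.11 for Hoxb13, -0.014 to 0.049 for Hoxc10, -0.18 to 0.19 for Hoxd3, -0.14 to 0.10 for Hoxd8 and -0.0040 to 0.30 for Hoxd12. Of the other genes named, Kdr stood at -0.011 after quantile normalization and at -0.00025 with medians centred, where Cdx1 stood at -0.0010. Left-out ranges were -0.069 to 0.15 for Kdr, -0.10 to 0.18 for Cdx1, -0.24 to 0.12 for Cdx4, -0.044 to 0.15 for Nanog, -0.33 to 0.10 for Pou5f1 and -0.017 to 0.35 for Sox10. Of the other named genes that had not passed, Nkx2-5 passed in 4 alternatives, one of them the threshold of 0.1, Mir196a-2 with only probe sets with a symbol (0.0498) and at 0.1, and Mir10a at 0.1. Of 22 called list members, 10 passed with the control probe sets kept and 5 with the block.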

Other observations

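Homeobox genes outside the Hox clusters were also counted, by the word homeobox in the gene name, a choice made after the values were seen. Of 124 such genes 4 rose and 4 fell, 6.45% in all, against 9.26% of all genes. Among those past the threshold were Dlx2, Mkx, Irx5 and Dmbx1, and Pknox2, Prrx1 and Prrx2, described above. Dlx2, a factor of the pharyngeal arches and forebrain, read 9.04 and 9.07 in the Myolinc line and 9.84 and 9.74 in empty vector (log2 fold change -0.73, SE 0.07, limma adjusted p = 0.0175). Mkx, a regulator of tendon, read 6.98 and 6.81 in the Myolinc line and 7.51 and 7.81 in empty vector (-0.77, SE 0.13, adjusted p = 0.0434). Irx5 fell by 0.42 (SE 0.06, adjusted p = 0.0319), and Dmbx1, named for the midbrain, rose by 0.47 (SE 0.06, adjusted p = 0.0274). With the control probe sets kept, Dlx2 passed (0.0367), while Mkx (0.0722), Irx5 (0.0566) and Dmbx1 (0.0506) did not. With the replicate block none of the 4 passed (0.0515, 0.0910, 0.0694 and 0.0645).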
